A study of Mus musculus with 5 samples.

Results

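The genes of the proteasome and of its assembly were described in sorted islet cells of the mouse pancreas. Members were chosen by name: a gene belonged if its symbol starts with Psma, Psmb, Psmc, Psmd, Psme, Psmf or Psmg followed by a digit. The probe set of each gene was selected on its mean log2 signal over the 5 arrays, the highest being kept, so these mean levels are a description and not a result. This gave 50 of the 19938 genes with a probe set assigned to a single symbol. By role they were 14 constitutive 20S core subunits, 3 immunoproteasome subunits, 17 subunits of the 19S cap, 7 assembly factors, 5 activators and inhibitors and 2 testis and thymus forms. The other 2, Psmc3ip and Psme3ip1, encode partners named after a subunit, and they were kept apart because they are no part of the particle.

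The study sorted pancreatic islet cells by flow cytometry for Flattop, the product of the ciliary and planar polarity gene Cfap126, into Flattop-positive cells (3 arrays) and Flattop-negative cells (2 arrays). All 5 pools came from untreated C57BL/6 mice aged 8 to 12 weeks that were heterozygous for Flattop (FVR/+), so there was no group without this allele. Each array held RNA from 1 pool of 4 to 6 mice whose sex was not determined. Nothing in the labels says that the pools shared no mice, so p-values measure the spread between these pools. Values are log2 signals, so 1 unit is a doubling, and fewer cells of a type and less RNA per cell cannot be told apart in such pools.

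The proteasome is the barrel-shaped protease that degrades proteins tagged with ubiquitin. Its 20S core is built of stacked rings of α subunits (Psma genes) and β subunits (Psmb genes), and Psmb5, Psmb6 and Psmb7 carry the active sites. The 19S cap recognises, unfolds and feeds in the substrate, using a ring of ATPases (Psmc genes) and non-ATPase subunits (Psmd genes). Under interferon, Psmb8, Psmb9 and Psmb10 replace the constitutive active subunits and form the immunoproteasome, which shapes peptides for antigen presentation. In β-cells, which make large amounts of secreted protein, the proteasome also takes part in the degradation of misfolded proinsulin.

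The 2 Flattop-negative arrays stood apart from each other. Their correlation was r = 0.846 over all genes, below that of any other pair of arrays. Over the 50 members it was r = 0.739, against 0.911 to 0.979 among the Flattop-positive arrays. Replicate 1 was the one further from the Flattop-positive arrays over the members, at 0.758 to 0.782, while replicate 2 was at 0.908 to 0.927. Flattop-negative replicate 1 was low in markers of δ and PP cells, with a mean log2 signal of 6.99 over 3 genes against 9.68 to 10.86 elsewhere. Flattop-negative replicate 2 had the highest mean over the 13 immune markers measured (5.37 against 4.42 to 4.75), with Lyz2 at 9.41 there against 3.36 to 4.58 elsewhere. The immune markers C1qa, Cd79a, Cd3e and Adgre1 were not highest on that array, and C1qa and Cd79a were higher in Flattop-positive cells by the threshold used for the members, which is an unadjusted limma p below 0.05 with a 1.5-fold difference (1.32 and 1.18), while C1qc and H2-Ab1 were lower (-0.91 and -0.81). The 5 acinar markers also averaged highest on replicate 2 (5.72 against 4.17 to 4.49). The 9 β-cell markers averaged 10.25 to 10.41 in the Flattop-positive group and 9.41 and 9.35 in the Flattop-negative group, and 6 of them were higher in Flattop-positive cells by that threshold. The 4 α-cell markers averaged 8.83 to 9.13 in the Flattop-positive group and 8.28 and 9.65 in the other, and the 5 stellate markers 4.47 to 4.77 against 4.77 and 5.25. The 3 duct markers averaged 6.38 to 6.94 against 5.52 and 6.84, and 1 of them, Krt7, was higher in Flattop-positive cells by the threshold, at 9.29, 9.88 and 9.05 against 6.76 and 8.37 (1.85). As a floor for signal served the 95th percentile of the 1015 olfactory receptor genes on each array, and 4 immune markers and 3 of 4 endothelial markers lay under it on all 5 arrays. The part of these differences in the results on the proteasome was not tested, and values without an array are given for many of the members whose threshold call turned on it.

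Proteasome genes lay higher in the Flattop-positive cells as a family, with the β ring of the core furthest apart. Of the 50 members, 46 had a higher mean in the Flattop-positive arrays, and the median log2 difference (Flattop-positive minus Flattop-negative) was 0.87, against -0.10 over all genes. By the threshold just given, 28 members were higher, where 8.08% of all genes tested were, and 0 were lower, where 3.74% were. The arrays of the groups did not overlap for 33 members, all of them higher in Flattop-positive cells, and for 0 in the other direction. Over all genes these shares were 13.7% and 21.0%. The median signal of all genes is lower than that of the members, and counts among genes of like signal are given below. No member passed limma's test at an adjusted p of 0.05 over all genes (0 of 50, against 0% of all genes), while 29 had an unadjusted p under 0.05. The smallest adjusted p was 0.198. The family was proposed with these differences known, so the counts describe it and are no independent evidence of its direction.

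**Figure D1:**
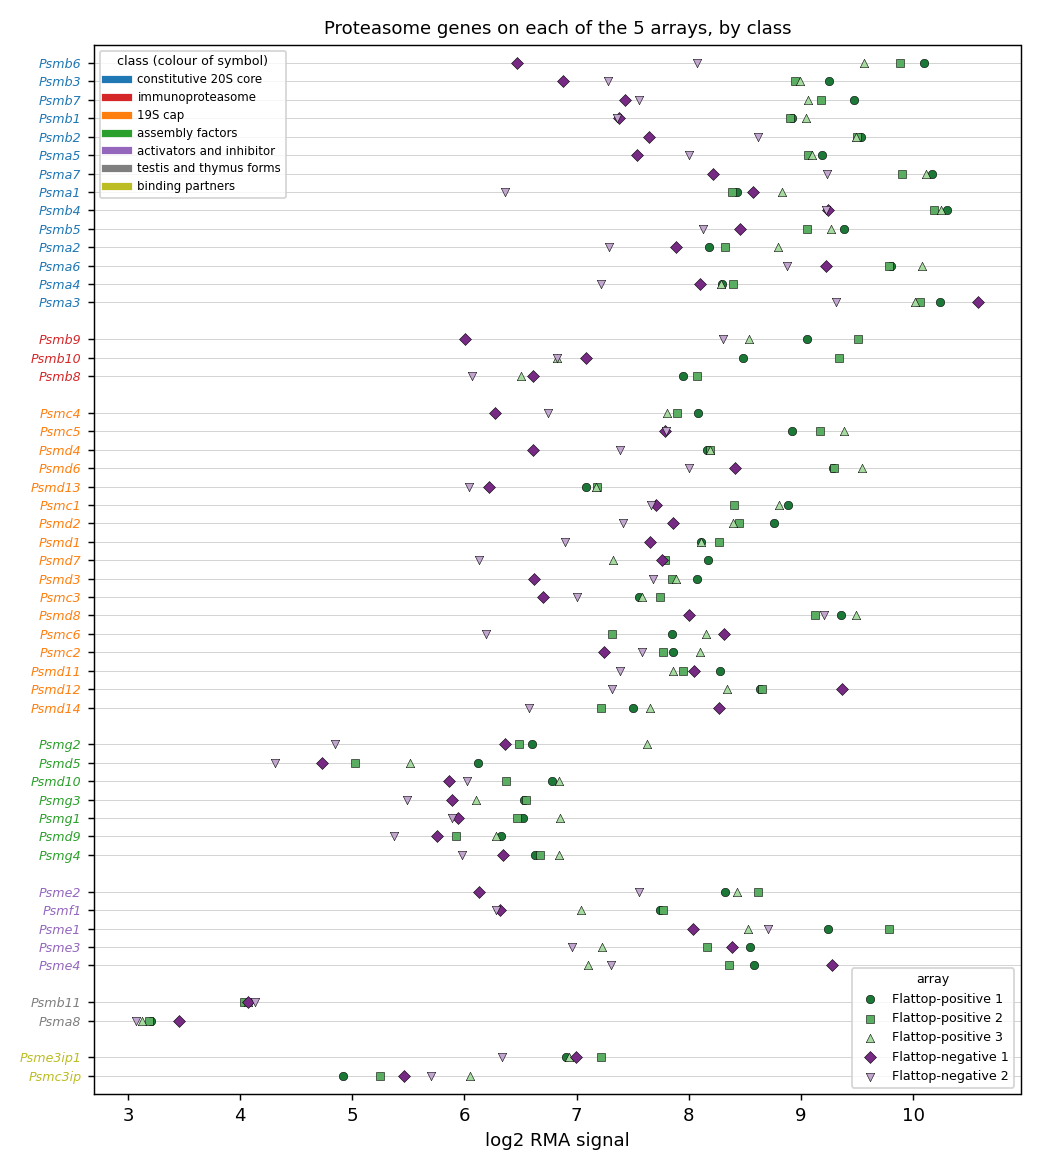
Log2 RMA signal (horizontal axis) of each of the 50 members (rows, grouped by class) on the 5 arrays, with 1 symbol per array. The purple Flattop-negative symbols lie left of all green Flattop-positive symbols in 33 rows; compare symbols within a row only, since probe sets of different genes are not on 1 scale.

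On these arrays brighter genes as a whole lay higher in Flattop-positive cells, and most members are bright. The 18 members with a mean log2 signal of 8 to 9 stood in a range where the median difference of all genes was 0.45, and 16 of them lay above that median. In the range of 7 to 8 the median of all genes was 0.34, and 12 of 15 members lay above it. In the range of 6 to 7 it was 0.30, and 7 of 7 did. Of 1045 genes in the range of 8 to 9, 264 passed the threshold as higher and 6 as lower. There 383 were higher and 28 lower without overlap. Of 2240 genes in the range of 7 to 8, 469 passed as higher and 19 as lower, and 669 were higher and 75 lower without overlap. The shares over all genes are therefore too low a yardstick for higher members and too high for lower ones. For 46 members every array was above the floor; Psma8 and Psmb11 were below it on all 5 arrays, Psmd5 on both Flattop-negative arrays and Psmg2 on Flattop-negative replicate 2.

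Of the 28 higher members, 20 kept the unadjusted threshold whichever single array was left out, and 15 kept it after repeated quantile normalisation, median centring and cyclic loess alike. Both held for 14. These were Psmb6, Psmb3, Psmb7, Psmb1, Psmb2, Psma5 and Psma7 of the core, Psmc4, Psmc5, Psmd4, Psmd6 and Psmd13 of the cap, the activator subunit Psme2 and the inhibitor Psmf1. The share of all higher genes that kept the threshold in these ways is not given here, so the counts of 20, 15 and 14 have no yardstick. Centring moved the median over all genes from -0.10 to 0.07, and cyclic loess moved it to -0.0037.

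Promoters are shown because most members lay higher in the same fraction and proteasome genes are known targets of Nfe2l1, a transcription factor that binds antioxidant response elements when the proteasome is inhibited. RefSeq promoter windows (GRCm38.p6), from 250 bases before to 50 after the start, were matched for 42 members. The core of the element, TGACNNNGC on either strand, was found in 6 of them, 14.3%, and in 14.0% of all 27025 genes with a window. The median log2 difference was 0.57 for these 6 members and 0.89 for the 36 others. Upstream of the start it lay in 5: Psmb5 (chr14:54617996-54618082, minus strand), Psmb6 (chr11:70525308-70525356, plus), Psmc6 (chr14:45329574-45329645, plus), Psmd9 (chr5:123228119-123228189, plus) and Psmd12 (chr11:107479278-107479329, plus). In Psme4 it began 7 bases before the start and spanned it, and it is not printed. The stretches around the match are printed with the element in capitals, in the direction of the gene; Psmc6 and Psmd12 hold it on the opposite strand.
Psmb5: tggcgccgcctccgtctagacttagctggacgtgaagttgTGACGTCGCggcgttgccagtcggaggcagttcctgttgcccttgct
Psmb6: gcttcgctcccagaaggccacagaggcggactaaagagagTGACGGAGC
Psmc6: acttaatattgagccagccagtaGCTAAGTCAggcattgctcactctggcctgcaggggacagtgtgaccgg
Psmd9: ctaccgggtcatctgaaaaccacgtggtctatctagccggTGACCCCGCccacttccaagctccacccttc
Psmd12: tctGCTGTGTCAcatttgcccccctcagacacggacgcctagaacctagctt

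In Psmb6, the member with the largest difference, the element ended at the base before the start. Psme4, where it spanned the start, had a lower mean in Flattop-positive cells (-0.28), with overlap. Psmd9 and Psmb5 held it from 31 and 47 bases upstream, with differences of 0.61 and 0.95. Psmc6 and Psmd12, whose groups overlapped, held it from 227 and 247 bases upstream. A relation between its position and the difference was not tested. The CCAAT box was found in 16 of the 42 (38.1%, against 41.1% of all genes), and the interferon response core GAAANNGAA in 7 (16.7%, against 9.76%). Those 7 were Psmb3, Psmb4, Psmc2, Psmd4, Psmd9, Psme1 and Psmg4, so no immunoproteasome gene was among them. The gamma-activated site TTCNNNGAA, which binds STAT factors, was found in 3 (7.14%, against 9.55%), namely Psmb8, Psmd2 and Psmg1. It is shown in capitals for the interferon-inducible Psmb8, at chr17:34198058-34198146 on the plus strand.
Psmb8: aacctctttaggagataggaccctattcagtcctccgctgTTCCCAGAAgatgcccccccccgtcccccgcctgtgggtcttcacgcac

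All 14 constitutive core genes had a higher mean in the Flattop-positive cells, and 11 passed the unadjusted threshold. Their median log2 difference was 1.21. Of all genes with a mean log2 signal of 8 to 9, 264 of 1045 passed as higher, and of those at 9 to 15, 163 of 605 did. The class median on the arrays was 9.43, 9.12 and 9.18 in Flattop-positive replicates 1 to 3 and 7.99 and 8.04 in the Flattop-negative pair, so the groups were well separated. Members of the β ring had a median of 1.59 and those of the α ring of 0.84. All 7 β genes passed the unadjusted threshold, while 4 of the 7 α genes did. That difference between the rings was not tested.

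Psmb6, the subunit with caspase-like activity, was the furthest apart of all members. Flattop-positive replicates 1 to 3 gave 10.10, 9.88 and 9.56, and the Flattop-negative pair gave 6.47 and 8.08; other genes are given in this order. Every Flattop-positive array was higher, but the Flattop-negative arrays were more than 1 unit apart from each other. The difference was 2.57 ± 0.50 log2 units (SE), 5.95-fold, with limma's adjusted p = 0.214. It was 3.38 against replicate 1 alone and 1.77 against replicate 2 alone.

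Psmb3, a structural β subunit, stood at 9.25, 8.95 and 8.99 against 6.88 and 7.28. These arrays were tight within each group, and the difference was 1.99 ± 0.22 (SE; limma adjusted p = 0.198). Its other probe set, at a lower mean signal, gave 2.14. Psmb7, with trypsin-like activity, stood at 9.48, 9.18 and 9.06 against 7.43 and 7.56, a 3.35-fold difference. Psmb1, a structural β subunit, had the tightest Flattop-negative pair of these, at 7.37 and 7.36, against 8.92, 8.90 and 9.05.

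Psmb5, whose chymotrypsin-like site is the main target of proteasome inhibitors, stood at 9.39, 9.06 and 9.27 against 8.45 and 8.12. Its groups did not overlap, and the difference of 0.95 ± 0.22 (SE) was the smallest of the β ring. After cyclic loess and after repeated quantile normalisation it no longer reached the threshold, as was so for Psmb4, Psma6 and Psma2. Psmb2 had 1.38 ± 0.32 and Psmb4 1.01 ± 0.18. The Psmb2 difference was 0.89 when Flattop-negative replicate 1 was left out, and that of Psma7 from 1.34 to 0.83.

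In the α ring, which forms the gated entrance of the core, Psma5 and Psma7 were furthest apart, with 1.34 each. The second probe set of Psma5 gave 1.78. Psma3 was the core gene least apart. It stood at 10.24, 10.06 and 10.02 against 10.58 and 9.31, so that 1 Flattop-negative array was above and the other below all Flattop-positive arrays. Its 3 probe sets gave 0.10 to 0.20, and several probe sets for 1 gene can include near-identical copies, which makes the source of this signal uncertain. The same caution holds for Psmb3, Psma5, Psmc1 and Psmd2, which also had more than 1 probe set. Psma4 stood at 8.30, 8.40 and 8.28 against 8.10 and 7.22, apart but short of the threshold (0.67 ± 0.30, SE). It passed without Flattop-negative replicate 1 (1.10) and was 0.23 without replicate 2. Psma6 stood at 9.80, 9.78 and 10.08 against 9.22 and 8.87, with a difference of 0.84 ± 0.22 (SE). For Psma1, Flattop-negative replicate 1 (8.57) lay among the Flattop-positive arrays (8.39 to 8.83) and replicate 2 at 6.36. Both Psma1 (2.19) and Psma3 (0.79) passed the threshold without replicate 1. For Psma2 the difference was 0.84 with both Flattop-negative arrays and 0.55 without replicate 2, where it was no longer past the threshold. The threshold was also lost without Flattop-positive replicate 2 (0.90) or 3 (0.66).

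**Figure D2:**
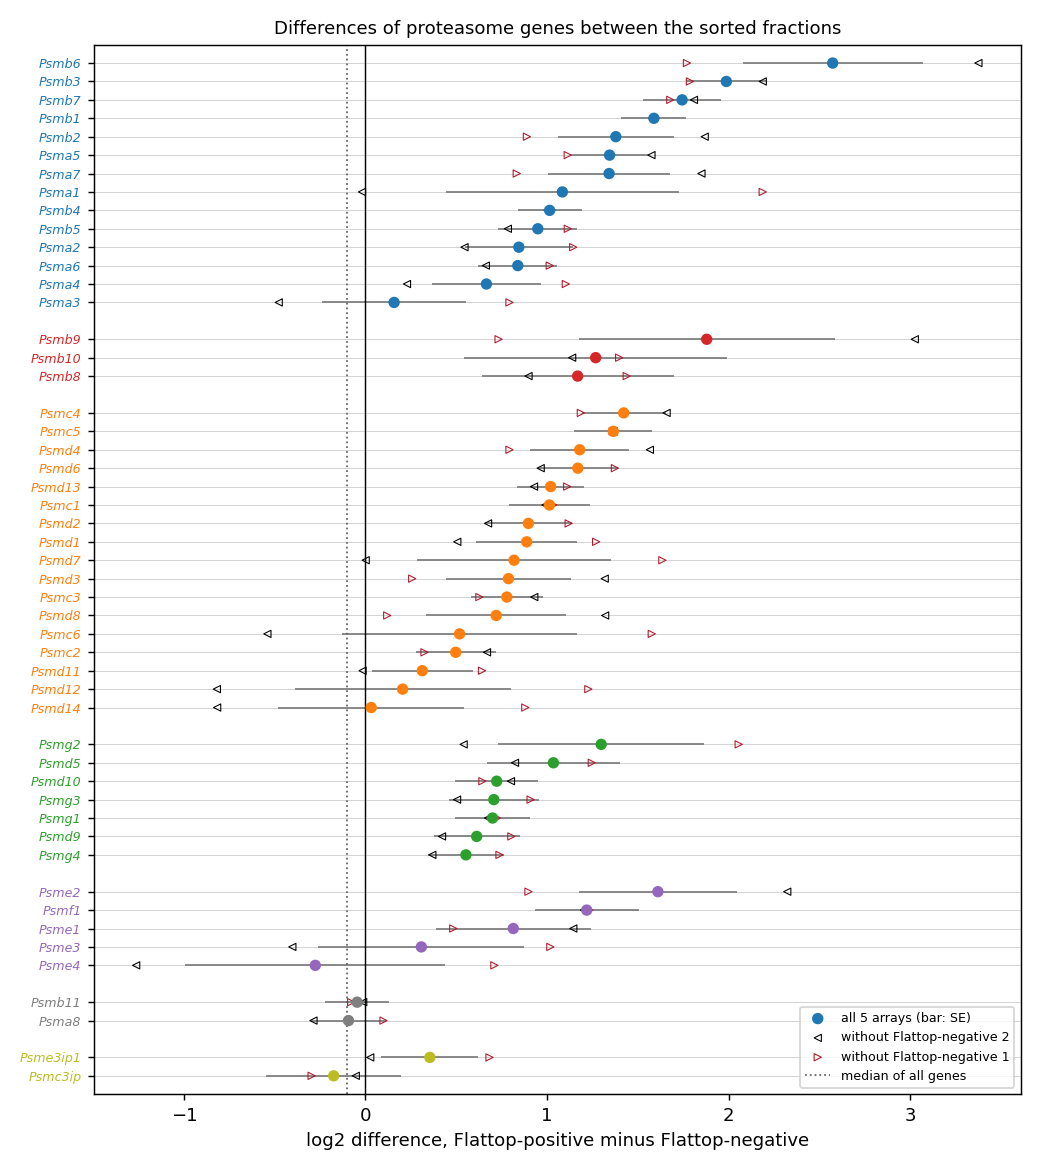
Log2 difference, Flattop-positive minus Flattop-negative, of each member (rows, by class), with the limma SE as a bar; open triangles give the difference without 1 or the other Flattop-negative array, and the dotted line the median of all genes (-0.10). The 7 β ring genes stay at 0.78 or above in all 3 versions, whereas 9 members, Psma1, Psma3, Psma8, Psmc6, Psmd11, Psmd12, Psmd14, Psme3 and Psme4, change side with the array left out.

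The 19S cap followed the core at a smaller size. All 17 cap genes had a higher mean in Flattop-positive cells, with a median of 0.82, and 9 passed the unadjusted threshold. Groups did not overlap for 11 of them. Leaving out Flattop-negative replicate 1 gave a median of 1.11, the same as for the core (1.11). Leaving out the other gave 0.93 for the cap and 1.29 for the core. After cyclic loess the cap median was 0.43. The ATPases had a median of 0.90 over 6 genes and the non-ATPase subunits of 0.82 over 11. Of 2240 genes with a mean log2 signal of 7 to 8, 469 passed as higher and 669 were higher without overlap. At 8 to 9 these counts were 264 and 383 of 1045 genes.

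Among the ATPases, which unfold the substrate, Psmc4 stood at 8.08, 7.89 and 7.80 against 6.27 and 6.74. Psmc5 stood at 8.92, 9.17 and 9.38 against 7.79 and 7.80, with the closest Flattop-negative pair of all members. Their differences were 1.42 ± 0.23 and 1.36 ± 0.22 (SE), with limma adjusted p-values of 0.199 and 0.198. Psmc1 had 1.01 and Psmc3 0.78, while Psmc2 (0.50) and Psmc6 (0.52) missed the threshold. Psmc2 passed it without Flattop-negative replicate 2 (0.67; 0.33 without replicate 1) and Psmc6 without replicate 1 (1.58; -0.54 without replicate 2).

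Psmd4, a receptor for ubiquitin chains, stood at 8.16, 8.19 and 8.19 against 6.62 and 7.39. The Flattop-positive arrays were nearly identical, and the difference was 1.18 ± 0.27 (SE; limma adjusted p = 0.236). Psmd6 and Psmd13, subunits of the lid, had 1.17 and 1.02, and the large scaffold subunits Psmd2 and Psmd1 had 0.90 and 0.89. That of Psmd1 was 0.51 without Flattop-negative replicate 2, where it was no longer past the threshold. The threshold was also lost without Flattop-positive replicate 1 (0.92) or 2 (0.83), and after quantile normalisation (0.60) and cyclic loess (0.47). Psmd3, Psmd7 and Psmd8 lay between 0.72 and 0.82 and did not reach it, but each depended on the Flattop-negative array. Psmd7 passed without replicate 1 (1.64) and was 0.001 without replicate 2. Psmd3 and Psmd8 passed without replicate 2 (1.32 each) and were 0.26 and 0.12 without replicate 1.

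Psmd14, the deubiquitinase that removes the ubiquitin tag before degradation, had group means close to each other (0.03 ± 0.51, SE). It stood at 7.50, 7.22 and 7.65 in Flattop-positive cells and at 8.27 and 6.58 in Flattop-negative cells, which thus lay on both sides. The lid subunit Psmd12 had the same pattern, at 8.64, 8.65 and 8.34 against 9.36 and 7.32. Psmd11, another lid subunit, stood at 8.28, 7.95 and 7.86 against 8.05 and 7.39, with overlap. Without Flattop-negative replicate 2, Psmd12 and Psmd14 were both lower in Flattop-positive cells and passed the unadjusted threshold (-0.82 each). Without replicate 1 both were higher and passed it too (1.23 and 0.88).

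Most members did not show this split. Flattop-negative replicate 2 lay below all 3 Flattop-positive arrays for 45 of 50 members and at or above all of them for 1, Psmb11, where 41.4% of all genes were at or above. Replicate 1 lay below all of them for 35 members and at or above for 7, where 40.6% of all genes were. The 7 were Psma3, Psmc6, Psmd12, Psmd14, Psme4 and, at the floor, Psma8 and Psmb11. The shares of all genes include many dim genes, and among brighter genes they were smaller. Of 1045 genes with a mean log2 signal of 8 to 9, 119 were at or above on replicate 2 and 258 on replicate 1. Of 2240 genes at 7 to 8, 320 and 661 were. Lying below all 3 Flattop-positive arrays was common among bright genes too. Of all 19938 genes, 5727 did so on replicate 2 and 5832 on replicate 1. At 8 to 9 these counts were 656 and 556 of the 1045 genes, and at 7 to 8 they were 1356 and 1032 of the 2240. Psmb6 and Psmb9 lay more than 3 units below the Flattop-positive mean on replicate 1 (shifts of -3.38 and -3.03), against shifts of -1.77 and -0.73 on replicate 2.

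Some of the members that replicate 1 held high are long genes. The RefSeq genomic span was 88.7 kb for Psmd14 and 109 kb for Psme4, and 2.54 kb for Psmb6, 5.30 kb for Psmb9 and 3.66 kb for Psme2. Psmb7, at 55.9 kb, went the other way, with a shift of -1.81 on replicate 1. Across the 45 members with a mean log2 signal of at least 6, the log10 span correlated with the shift of replicate 1 from the Flattop-positive mean at Pearson r = 0.449 (Spearman 0.370). Over 6989 genes at that signal r was 0.310, so the relation was present beyond the family. For replicate 2 it was 0.038 over the members and -0.001 over all genes. For the group difference, which holds both replicates, r was -0.412 over the members and -0.25 over all genes at that signal. These are correlations across genes that share the arrays and their normalisation. Each shift rests on 1 Flattop-negative array, and the part of gene length in the differences was not tested.

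**Figure D3:**
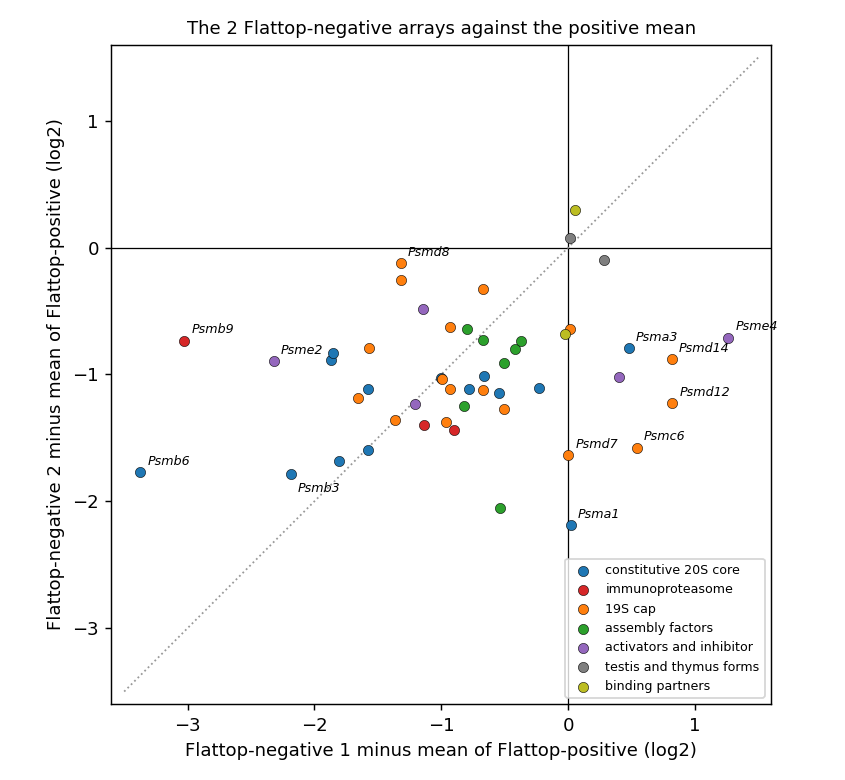
Each point is a member, coloured by class, with its log2 shift from the mean of the 3 Flattop-positive arrays on Flattop-negative replicate 1 (horizontal axis) and replicate 2 (vertical axis); the dotted diagonal marks equal shifts. Nearly all points lie below 0 vertically, while horizontally they spread from -3.38 for Psmb6 to 1.26 for Psme4.

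Leaving out a Flattop-negative array left the direction of the family. Without replicate 1 the median log2 difference of the 50 members was 1.02, against -0.084 over all genes. For genes with a mean log2 signal of 8 to 9 it was 0.54, and at 7 to 8 it was 0.53. Without replicate 2 the median of the members was 0.79, against -0.067 over all genes, 0.37 at 8 to 9 and 0.26 at 7 to 8. Some members were lower without replicate 2, among them Psmd12 and Psmd14 (-0.82 each) and Psme4 (-1.26). In that fit 9 members also passed an adjusted p of 0.05, against 1.81% of all genes that did so in the higher direction. They were Psmb1, Psmb2, Psmb3, Psmb6, Psma5, Psma7, Psmc4, Psmd4 and Psme2, with adjusted p-values of 0.0412 to 0.0471. The lone Flattop-negative array was then assumed to vary like the other group.

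The immunoproteasome genes differed from the rest of the core in how they varied among the Flattop-positive arrays. All 3 had a higher mean in Flattop-positive cells (median 1.27), but 1, Psmb9, passed the unadjusted threshold and 2 overlapped between the groups. Their median on the arrays was 8.49, 9.34 and 6.83 against 6.61 and 6.82, so Flattop-positive replicate 3 stood with the Flattop-negative arrays. Without that array the class median was 1.96, and Psmb8 (1.67) and Psmb10 (1.96) passed the threshold. Both also passed with the replicate number as a block, but that is no separate check. Flattop-positive replicate 3 has no partner there, so the block gave the same differences. The median SD among Flattop-positive arrays was 0.87 for these 3 genes and 0.15 for the constitutive core. The low replicate 3 was not particular to them. For the 5 activators and inhibitors the median SD was 0.63. Of those 5, 4 (Psme1, Psme3, Psme4 and Psmf1) were lower on replicate 3 than on the other Flattop-positive arrays. The median shift of replicate 3 from the mean of replicates 1 and 2 was -0.99 there and -1.50 for the immunoproteasome.

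Psmb8, the inducible counterpart of Psmb5, stood at 7.95, 8.07 and 6.51 against 6.61 and 6.07. Replicate 3 lay between the Flattop-negative values. The difference was 1.17 ± 0.53 (SE; limma adjusted p = 0.398). Psmb10, the counterpart of Psmb7, stood at 8.49, 9.34 and 6.83 against 7.08 and 6.82, with the same outlying replicate (1.27 ± 0.72, SE). Psmb9, the counterpart of Psmb6, stood at 9.06, 9.51 and 8.54 against 6.01 and 8.30. Its difference of 1.88 ± 0.70 (SE) was 3.03 against replicate 1 and 0.73 against replicate 2, and without replicate 1 it was no longer past the threshold. The threshold was also lost without Flattop-positive replicate 1 (1.87) or 2 (1.64) and after quantile normalisation (1.57) and cyclic loess (1.44).

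Whether inducible and constitutive subunits shifted unequally was asked of the 3 pairs, by the difference of both probe sets within each array. Psmb8 minus Psmb5 changed by 0.22 between the groups, Psmb9 minus Psmb6 by -0.69 and Psmb10 minus Psmb7 by -0.48. The exact two-sided permutation test gave p = 0.8, 0.4 and 0.8, each 0.8 after adjustment over the 3 pairs, in a design whose smallest possible p is 0.2. Within the Flattop-positive group these differences had SDs of 0.92, 0.39 and 1.20 (n = 3), larger than the change for Psmb8 and Psmb10. The first turned to -0.15 without Flattop-positive replicate 2, and the third to 0.13 without Flattop-positive replicate 3.

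**Figure D4:**
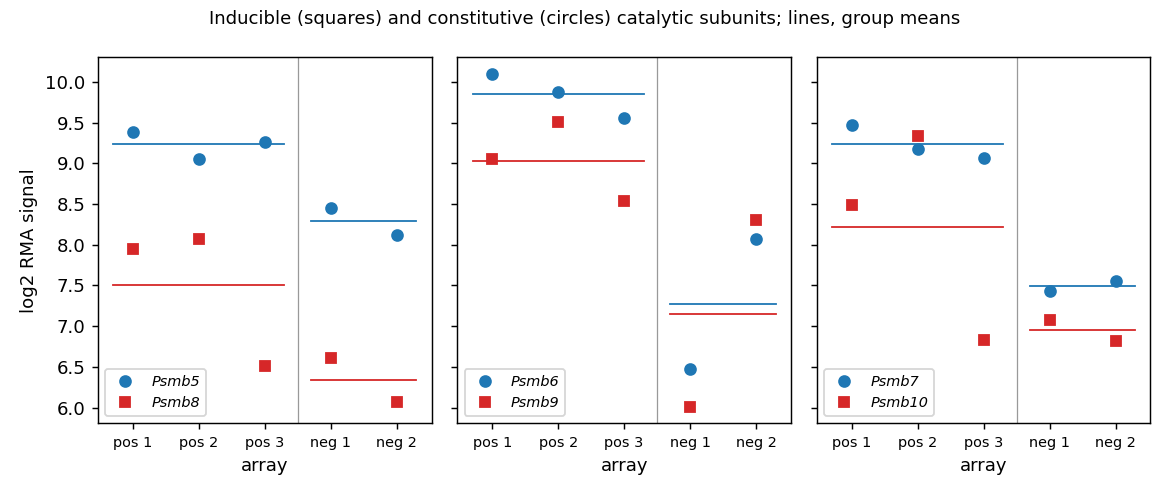
Log2 RMA signal on each array (3 Flattop-positive, 2 Flattop-negative) of the constitutive catalytic subunits (circles) and their inducible counterparts (squares), with group means as lines. Psmb8 and Psmb10 drop on Flattop-positive replicate 3 to 6.51 and 6.83, while Psmb5 and Psmb7 stay at 9.27 and 9.06; heights of different genes are not comparable.

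Genes of antigen presentation and interferon signalling shared part of that pattern. Of the 11 measured of 16 listed, 0 passed the unadjusted threshold in either direction, and the median difference was 0.55. Their mean log2 signal was 8.36 and 8.50 on Flattop-positive replicates 1 and 2, 7.37 on replicate 3 and 7.61 and 7.69 on the Flattop-negative arrays. Tap1, a subunit of the peptide transporter, stood at 7.63, 7.71 and 5.85 against 5.14 and 6.43, and the interferon regulator Irf7 at 7.56, 8.48 and 5.57 against 5.56 and 6.46. The activator Irf1 ran the other way, with its highest level on replicate 3 (10.24, against 8.39 and 8.05).

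The activators, which cap the core in place of the 19S particle, were split. Psme2, a subunit of the interferon-inducible activator, stood at 8.32, 8.62 and 8.43 against 6.13 and 7.56. Its groups were separate, and the difference was 1.61 ± 0.44 (SE; limma adjusted p = 0.262). It was 2.32 against Flattop-negative replicate 1 and 0.90 against replicate 2. A probe set shared with Psme2b, not counted as a member, gave 1.29. Its partner Psme1 stood at 9.25, 9.79 and 8.53 against 8.04 and 8.70 and overlapped (0.81 ± 0.43, SE). It passed the threshold without Flattop-positive replicate 3 (1.14) and with the replicate block, which gives the same difference by design. The Psme1 difference was 0.51 without Flattop-positive replicate 2 and 0.48 without Flattop-negative replicate 1.

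Psme3, the nuclear activator, stood at 8.55, 8.17 and 7.23 against 8.38 and 6.96. Psme4, another nuclear activator, stood at 8.58, 8.36 and 7.10 against 9.28 and 7.30 and was, apart from the testis and thymus forms, the 1 proteasome part with a lower mean in Flattop-positive cells (-0.28 ± 0.72, SE). Both spread over more than 1 unit within each group, more than their groups differed. Psmf1, which binds the core and inhibits it in vitro, stood at 7.74, 7.77 and 7.04 against 6.32 and 6.29. Here the Flattop-negative pair was tight and below every Flattop-positive array (1.22 ± 0.29, SE; limma adjusted p = 0.237).

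All 7 assembly factors, chaperones that help to build the core and the cap, were higher in Flattop-positive cells with no overlap between the groups. Their differences ran from 0.55 to 1.30 with a median of 0.71, and 5 passed the unadjusted threshold with at least 1.5-fold. All 5 lost it without at least 1 of the arrays, and Psmd10, Psmg3, Psmg1 and Psmd9 also after quantile normalisation or cyclic loess. Psmg1 lost it without Flattop-positive replicate 3 and Psmd10, Psmd9, Psmg3 and Psmd5 without 3 or 4 of the arrays in turn. Of 3103 genes with a mean log2 signal of 6 to 7, 844 were higher without overlap and 487 passed the threshold as higher. At 4 to 6, where Psmd5 and Psmd9 lay, 567 and 226 of 7951 genes were.

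The chaperone Psmg2, a partner of Psmg1 in building the α ring, stood at 6.60, 6.49 and 7.63 against 6.37 and 4.85. Its difference was the largest of the class and the least precise (1.30 ± 0.57, SE), and its lowest value was under the floor. It passed the threshold without Flattop-negative replicate 1 (2.06) and was 0.54 without replicate 2. Psmg1 stood at 6.52, 6.47 and 6.85 against 5.94 and 5.89 (0.70 ± 0.21, SE). Psmg3 had 0.71. Psmg4 stood at 6.63, 6.67 and 6.84 against 6.35 and 5.98, a difference of 0.55, under 1.5-fold. It was 0.74, past the threshold, without Flattop-negative replicate 1 and 0.37 without replicate 2.

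Of the chaperones of the cap's base, Psmd5 stood at 6.13, 5.02 and 5.51 against 4.73 and 4.31. Both Flattop-negative values were under the floor, so the size of its difference (1.03) is uncertain. Psmd10, also known as gankyrin, stood at 6.78, 6.37 and 6.84 against 5.87 and 6.02 (0.72 ± 0.23, SE). Psmd9 stood at 6.33, 5.92 and 6.28 against 5.76 and 5.37 (0.61 ± 0.24, SE).

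The tissue-restricted forms were at the floor in both fractions. Psma8, a core subunit of the testis, stood at 3.20, 3.19 and 3.12 against 3.46 and 3.07, and Psmb11, the catalytic subunit of the thymus, at 4.07, 4.03 and 4.07 against 4.07 and 4.14. Their differences (-0.09 and -0.05) turned sign under quantile normalisation, centring and cyclic loess. Psmc3ip, a meiotic recombination factor, stood at 4.92, 5.24 and 6.05 against 5.46 and 5.70, and Psme3ip1 at 6.91, 7.22 and 6.93 against 6.99 and 6.34. Neither was separate between the groups, and Psme3ip1 passed the threshold without Flattop-negative replicate 1 (0.68).

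Genes that work with the proteasome but lack the prefix lay closer to the median of all genes. Of 10 such subunits and factors measured of 14 listed, 1 was higher and 1 lower at the unadjusted threshold, with a median of 0.16. Pomp, the maturation protein of the core, stood at 9.67, 9.52 and 9.82 against 8.41 and 8.80, a 2.09-fold difference (limma adjusted p = 0.214) that kept p under 0.05 under each other normalisation and with any single array left out (0.63 after cyclic loess). Zfand5, a stress-induced protein that activates the proteasome, was lower in Flattop-positive cells, at 7.80, 7.36 and 8.30 against 8.79 and 8.90 (-1.02 ± 0.31, SE; limma adjusted p = 0.286). Its threshold was lost without Flattop-positive replicate 1 (-1.01) and without either Flattop-negative array (-1.07 and -0.97). The cap subunit Sem1 and the deubiquitinase Usp14 had the pattern of Psmd14, with Flattop-negative replicate 1 highest (10.62 and 8.43) and replicate 2 lowest (8.89 and 6.13).

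Of the 6 genes measured that control transcription of the family, 1 passed the threshold. Nfe2l1 stood at 9.08, 8.85 and 8.11 against 6.72 and 7.86, a 2.62-fold difference (1.39 ± 0.45, SE; limma adjusted p = 0.303). The threshold was lost without Flattop-negative replicate 1 (0.82), without Flattop-positive replicate 1 (1.19) or 2 (1.31), and after quantile normalisation (1.09) and cyclic loess (0.95). Nfe2l2, its relative in the response to oxidants, lay between 7.72 and 7.89 on all 5 arrays. Ngly1, the enzyme that removes glycans from Nfe2l1 on its way to the nucleus, was at 0.74, and the small Maf partners Mafg, Mafk and Maff at -0.25, 0.24 and -0.11, all 4 short of the threshold.

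Of the 8 genes of ubiquitin activation and substrate delivery measured of 15 listed, 7 had a higher mean in Flattop-positive cells and 1 passed the threshold. It was Vcp, the segregase that pulls ubiquitylated proteins out of membranes and complexes, at 8.96, 8.90 and 9.12 against 8.54 and 7.49 (0.98 ± 0.34, SE). That difference was 1.51 without Flattop-negative replicate 1. It was short of the threshold when any other array was left out, at 0.45 without Flattop-negative replicate 2, and after quantile normalisation (0.61) and cyclic loess (0.54). Its cofactors Ufd1 and Nploc4 had 0.93 and 0.29. The shuttle factors Rad23b, Ubqln1, Ubqln2 and Ubqln4 had 0.42, 0.31, 0.09 and 0.91. Uba6 was the gene with a lower mean (-0.28). None of these passed the threshold. Uba6 and Ubqln2 were highest on Flattop-negative replicate 1 (8.76 and 9.91) and lowest on replicate 2 (5.91 and 7.96).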

How the data were processed

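Each of the 5 arrays had 35556 probe sets, whose deposited log2 values the authors obtained by RMA. The submitters' processing notes name Affymetrix Expression Console, version 1.3.0.187. No source used here gives the genome build behind them. RMA corrects background, normalises between arrays and summarises probes. The number of arrays limits the precision. Only the 21789 probe sets with 1 gene symbol were used. The 50 members had 56 of these; 5 members had more than 1.

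A limma fit (version 3.58.1, under R 4.3.3) had group as its only term. Its two-sided p-values were adjusted by Benjamini and Hochberg's method across the 19938 genes. A gene was counted as higher or lower at an unadjusted p under 0.05 and 1.5-fold. No filter on low values was applied. The model was tested on simulated data. The gene classes, the related genes and the members were chosen with earlier results of these data known. Every member was named; values on every array were given for the 3 largest and 3 smallest differences of classes over 6 members, for all members of smaller classes and for Psmb5, Psmb6 and Psmb7. Psmb1, Psma1 and the uncalled related genes given with values were chosen after their values were seen. The pairs were tested with scipy 1.17.1.

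Alternatives were repeated quantile normalisation, centring, cyclic loess, the replicate number as a block, a variance trend, dim genes left out, the mean of all probe sets, a 2-fold threshold and each array left out. Protein sequences were not used here.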

Additional observations from a re-analysis of the deposited data

How the results depend on the processing

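The 28 members higher at the unadjusted threshold became 17 after repeated quantile normalisation, 15 after cyclic loess and 18 at 2-fold. The count of lower members was 0 to 2 and that of members past an adjusted p of 0.05 was 0 to 9 when single arrays were left out, the upper ends without Flattop-negative replicate 2. With the replicate number as a block 24 were higher. Flattop-positive replicate 3 has no partner in that fit, so its differences equal those without that array. Same-numbered arrays share only a number, and their deviations from the group means correlated at 0.182 for number 1 and -0.137 for number 2. The core median (1.21) was 0.88 after quantile normalisation, 1.39 with centring and 0.77 after cyclic loess. The cap median (0.82) was 0.59 and 0.43 after the first and last of these, and 0.79 to 1.11 without single arrays. Without single arrays, the change in Psmb8 minus Psmb5 was -0.15 to 0.73 and that in Psmb10 minus Psmb7 -1.07 to 0.13. Some members whose groups overlapped turned sign. After quantile normalisation Psma3 was -0.34, Psmd12 -0.23, Psmd14 -0.26, Psme3 -0.0028, Psmb11 0.21 and Psma8 0.087. After cyclic loess Psma3 was -0.27, Psmd11 -0.12, Psmd12 -0.24, Psmd14 -0.36, Psme3 -0.12, Psmb11 0.23 and Psma8 0.12. With centring Psmb11 was 0.13, Psma8 0.084 and Psmc3ip 0.0024, and with the replicate block Psmd14 was -0.066 and Psme4 0.18. Without single arrays the range was -0.019 to 2.19 for Psma1, -0.48 to 0.79 for Psma3, -0.54 to 1.58 for Psmc6, -0.016 to 0.64 for Psmd11, -0.82 to 1.23 for Psmd12, -0.82 to 0.88 for Psmd14, -0.40 to 1.02 for Psme3, -1.26 to 0.71 for Psme4, -0.29 to 0.10 for Psma8 and -0.50 to 0.069 for Psmc3ip. The cause of these changes was not tested. Signal under the floor limits Psma8, Psmb11 and Psmd5.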
